A study of Mus musculus with 20 samples.

Results

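Neutrophil precursors that carry secondary granule RNA were picked out cell by cell from all 20 libraries of the series. A barcode was kept when it carried 1500 or more unique molecular identifiers (UMIs, 1 per captured RNA molecule) over 200 or more genes, with mitochondrial transcripts at 10% or less. A kept cell was a precursor when it held at least 20 UMIs of S100a8 and S100a9 together, at least 10 of Camp, Ngp and Ltf together, fewer than 5 of Mpo, none of Cd3d, Cd3e and Cd3g, and at most 1 of Cd79a and Cd79b. This gave 2796 precursors among 97181 kept cells, and 2796 of the 4134 S100a8/S100a9-high cells, which met every other limit. The 1338 remaining S100a8/S100a9-high cells had fewer than 10 UMIs of Camp, Ngp and Ltf and are called low cells here.

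Neutrophils are made from progenitors in ordered steps, and each step fills its own kind of granule. Promyelocytes fill primary granules with enzymes such as myeloperoxidase (Mpo), elastase (Elane) and proteinase 3 (Prtn3). Myelocytes and metamyelocytes then fill secondary granules with cathelicidin (Camp), neutrophilic granule protein (Ngp), lactoferrin (Ltf) and lipocalin 2 (Lcn2), gelatinase (Mmp9) follows, and mature cells keep the proteins but lose most of these RNAs. Cebpe, a C/EBP transcription factor, is needed for the secondary granule step, and division stops after the myelocyte stage. S100a8 and S100a9 form calprotectin and are expressed from the myelocyte on and also in monocytes. In mice the spleen can make neutrophils outside the bone marrow.

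The libraries came from mice labelled C57BL/6N (the study's methods give C57BL/6J for the Eµ-TCL1 line), named by genotype as Eµ-PRMT5 (5 spleens), Eµ-TCL1 (4 spleens, 3 lymph nodes) and Eµ-PRMT5/TCL1 (4 spleens, 4 lymph nodes), 13 mice in all. Each carries a human cDNA, PRMT5 (an arginine methyltransferase), TCL1 (a leukaemia oncogene) or both, under the immunoglobulin heavy chain enhancer, which acts in B cells, so the neutrophil lineage is not the cell that the transgene was built for. Tissue of unselected live cells was taken at sickness, with no drug, and there is no wild-type group. Eµ-PRMT5 spleen 3 carries the name of a founder in its title, the nodes are sub-mandibular, and 7 mice gave both a spleen and a node. Eµ-PRMT5/TCL1 spleen 1 and lymph node 2 share a mouse, the only one whose label ends in RT. Every library is a separate mouse within its tissue, so spread between libraries is spread between mice. By their RNA the mice were of both sexes. Kept cells of Eµ-PRMT5 spleens 1 to 4, Eµ-TCL1 spleen 1 and Eµ-PRMT5/TCL1 spleens 1 to 3 held Xist (female) and no Y-linked RNA. The other spleens held Y-linked RNA and at most 4 UMIs of Xist. Genotype and sex were thus partly confounded, and the part of sex was not tested.

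The label was checked against its markers. Camp, Ngp, Ltf, S100a8 and S100a9 chose the cells and are given as a description only. The limits fell in a gap: of the S100a8/S100a9-high cells, 1043 had no UMI of Camp, Ngp or Ltf, while 2477 had 100 or more. Just below the limit, 51 cells had 5 to 9 UMIs, and just above it 38 had 10 to 14. A precursor held a median of 841.5 UMIs of the 3 genes (5th to 95th percentile 42.0 to 2701.5), or 12.4% of its RNA. Its median depth was 6497.5 UMIs and 1487 genes.

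**Figure D1:**
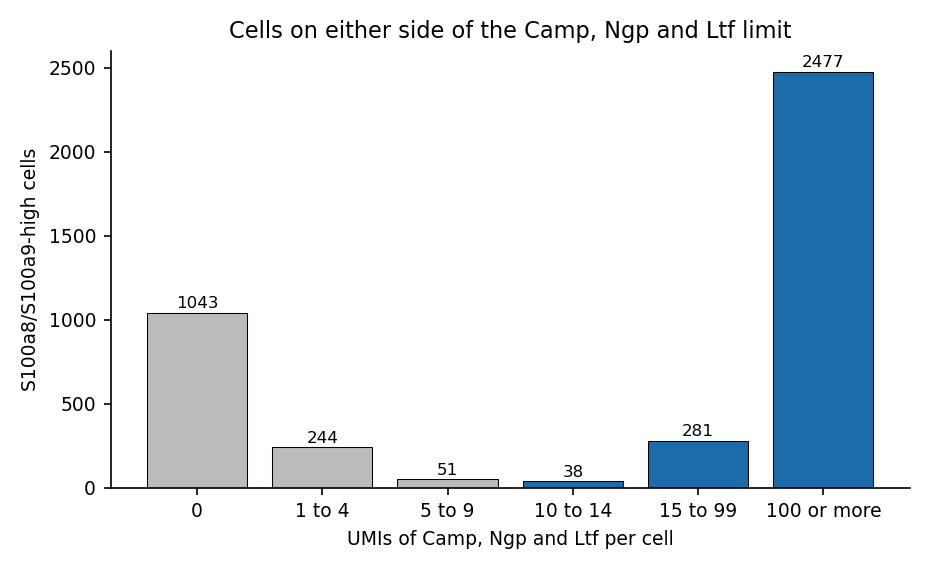
S100a8/S100a9-high cells of all libraries (vertical axis, number of cells) by their UMIs of Camp, Ngp and Ltf together (horizontal axis). Grey bars are low cells and blue bars precursors. On either side of the limit lie 51 and 38 cells, with 2477 at 100 UMIs or more, in bins of unlike width.

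The rule had removed cells with a Cd3 UMI or with 2 or more Cd79 UMIs, so low T and B cell markers were fixed in part by the choice of cells; natural killer and erythroid markers were not used in it. The T cell list summed to at most 16.4 UMIs per 1000000 (CPM) in any library, the erythroid list to at most 13.99 CPM, and the natural killer cell markers Klrb1c, Klre1 and Ncr1 were at 0. The B cell list was higher, at 270.2 to 1450 CPM, but rested on Cd37, which myeloid cells also express (148.0 to 389.1 CPM), and Cd74 (16.2 to 840.2 CPM). Ms4a1, which marks B cells, reached at most 6.28 CPM. The monocyte and macrophage list summed to 834.3 to 1662 CPM, most of it Ly6c2 (672.1 to 1568 CPM), and C1qa, of macrophages, reached at most 2.15 CPM. The exclusions took out 18.03% of the 3411 cells that met the limits on S100a8, S100a9, Camp, Ngp and Ltf: 165 cells with Mpo, of which 70 were in Eµ-PRMT5 spleen 4, 340 with a Cd3 UMI and 201 with Cd79. No doublet caller was run. Among precursors 4 barcode pairs were shared between libraries, where 4.57 would be shared at random.

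Camp, Ngp and Ltf lie on the same chromosome. The 250 bases before the start of each gene, read from RefSeq (build GRCm38.p6), span 1170 kb of chromosome 9 from the first to the last. They are printed because the RNAs of these genes define the cells. Capitals mark TTGCNNAA, a C/EBP-like motif, or its reverse TTNNGCAA, found in 3142 of 32851 mouse promoters of the same length (9.56%).
Camp, chr9:109849457-109849706, minus strand: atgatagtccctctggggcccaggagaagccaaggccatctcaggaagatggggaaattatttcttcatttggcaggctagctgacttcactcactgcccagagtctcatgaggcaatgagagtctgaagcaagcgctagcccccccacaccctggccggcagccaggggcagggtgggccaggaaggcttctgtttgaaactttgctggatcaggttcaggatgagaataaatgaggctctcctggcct
Ngp, chr9:110419558-110419807, plus strand: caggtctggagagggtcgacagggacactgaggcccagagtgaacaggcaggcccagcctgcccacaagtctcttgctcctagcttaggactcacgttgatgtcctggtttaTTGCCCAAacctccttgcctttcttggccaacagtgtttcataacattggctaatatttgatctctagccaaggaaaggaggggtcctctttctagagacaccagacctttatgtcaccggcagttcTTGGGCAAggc
Ltf, chr9:111019042-111019291, plus strand: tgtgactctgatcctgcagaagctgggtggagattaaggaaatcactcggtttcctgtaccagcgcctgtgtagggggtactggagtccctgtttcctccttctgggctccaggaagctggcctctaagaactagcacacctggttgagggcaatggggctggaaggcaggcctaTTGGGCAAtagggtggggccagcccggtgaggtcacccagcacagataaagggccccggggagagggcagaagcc
The motif occurred at 2 places before Ngp, 131 to 138 and 4 to 11 bases before the start, and at 1 place before Ltf, 68 to 75 bases before it. It was not in the Camp window. Of the other genes in the table, Lcn2, S100a9, Mmp8 and Retnlg held 1 each, and Chil3, Cd177 and S100a8 none.

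Libraries that stood apart are named before the results, but were picked after values had been seen. Total UMIs per library lay between 9348094 and 72440894, and kept cells between 784 and 8631. Sums over precursors were used where a library had at least 20 of them, in 11 spleens and 2 nodes. Levels are CPM, without the scaling between libraries (TMM) that the later gene test used. The TMM factor was 1.42 in Eµ-PRMT5/TCL1 spleen 4 and 0.862 to 1.06 in the other spleens. A rank in CPM need not hold after that scaling. Eµ-PRMT5/TCL1 spleen 4 (59 precursors) departed most: of 1062 genes at 100 CPM or more, 17 were at more than 2 times the level of the next spleen and 109 at less than 1/2 of it. Eµ-PRMT5 spleen 4 had 7 and 26 such genes, and no other spleen had more than 8 either way. Eµ-PRMT5 spleen 5 had 1 precursor, in which Camp, Ngp and Ltf made up 38.4% of UMIs and S100a8 and S100a9 1.74%. In Eµ-PRMT5/TCL1 spleen 4 the median precursor had 6.29% of its UMIs on S100a8 and S100a9, against 18.8% to 29.6% in the 11 other spleens with more than 1 precursor. For Gm42418 that spleen was low in precursors (1156 CPM) and also in all kept cells (1675 CPM, against 4310 to 13107 CPM in other spleens). Shares and genes whose difference rests on Eµ-PRMT5/TCL1 spleen 4 and Eµ-PRMT5 spleen 4 are also given without both. Leaving out this pair was not planned. Median correlation with the other spleens was lowest in Eµ-PRMT5/TCL1 spleen 4 (0.819). Eµ-PRMT5/TCL1 spleen 1 (0.821) and Eµ-PRMT5 spleen 2 (0.852) also lay below Eµ-PRMT5 spleen 4 (0.870), but were kept in that setting.

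The precursors were found in all 13 spleens, and their share varied more between mice than between genotypes. They made up 1.96%, 3.55%, 3.11%, 8.30% and 0.0167% of kept cells in Eµ-PRMT5 spleens 1 to 5, and 10.7%, 0.261%, 8.07% and 2.59% in Eµ-TCL1 spleens 1 to 4. In Eµ-PRMT5/TCL1 spleens 1 to 4 they made up 0.436%, 11.9%, 3.97% and 1.09%. Each genotype held spleens under 1% and spleens over 8%, and the ranges overlapped throughout. The means were 3.39% ± 3.07 (SD, n = 5), 5.41% ± 4.83 (n = 4) and 4.36% ± 5.28 (n = 4). The differences were -2.03 percentage points for Eµ-PRMT5 against Eµ-TCL1 (exact permutation test, two-sided, p = 0.444, adjusted over 11 share tests 0.808), -1.06 for Eµ-PRMT5/TCL1 against Eµ-TCL1 (exact p = 0.829, adjusted 0.829) and 0.973 for Eµ-PRMT5/TCL1 against Eµ-PRMT5 (exact p = 0.714, adjusted 0.829). None was larger than the spread between mice. With Eµ-PRMT5 spleen 4 and Eµ-PRMT5/TCL1 spleen 4 left out, the Eµ-PRMT5/TCL1 against Eµ-TCL1 difference turned to 0.0320 points. A share of droplets does not tell more precursors from fewer of the B and T cells around them.

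Lymph nodes held few precursors. Eµ-TCL1 nodes 1 and 2 had 0 of 4109 and 0 of 3345 kept cells, which allow shares of up to 0.0730% and 0.0897%, and node 3 had 58 cells (1.21%, Wilson 95% interval 0.935% to 1.56%). Eµ-PRMT5/TCL1 node 1 had 0 of 784, which allows up to 0.383%, and nodes 2 to 4 had 7 (0.149%), 89 (1.57%, interval 1.28% to 1.93%) and 6 cells (0.0695%). These intervals and limits cover counting error only. The third node of each genotype held most of that genotype's nodal precursors, and the genotypes overlapped: 0.448% ± 0.752 (SD, n = 4) against 0.402% ± 0.697 (n = 3; difference 0.0456 points, exact permutation p = 0.829, adjusted 0.829). In each of the 7 mice with both tissues the share was lower in the node than in the spleen, with means of 0.428% and 4.43% (difference -4.00 points). The exact two-sided sign-flip test gave p = 0.0156, the smallest that 7 mice allow, and 0.157 after adjustment, which does not pass 0.05. Over 11 share tests, no comparison on its own could pass with these numbers of mice. Not passing is therefore no sign of equal shares.

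The share of precursors among the S100a8/S100a9-high cells was lower in Eµ-PRMT5 spleens than in Eµ-PRMT5/TCL1 spleens, but the difference did not pass after adjustment. The shares were 46.2%, 67.9%, 61.9% and 39.1% in Eµ-PRMT5 spleens 1 to 4, and 86.3%, 64.3%, 80.4% and 72.9% in Eµ-TCL1 spleens 1 to 4. In Eµ-PRMT5/TCL1 spleens 1 to 4 they were 81.3%, 79.8%, 80.9% and 86.8%. Eµ-PRMT5 spleen 5, with 1 precursor among 4 S100a8/S100a9-high cells, was left out, since a share was taken only over at least 20 such cells. Each of the 4 Eµ-PRMT5/TCL1 spleens lay above each of the 4 Eµ-PRMT5 spleens kept, while Eµ-TCL1 spleens overlapped both. Eµ-PRMT5/TCL1 exceeded Eµ-PRMT5 by 28.4 points (82.2% ± 3.12 against 53.8% ± 13.4, SD, n = 4 each). The exact permutation p was 0.0286, the smallest that 4 against 4 allow, and 0.157 after adjustment. Over 11 share tests that smallest p could not pass on its own, so not passing is no sign of equal shares. Eµ-PRMT5 was 22.2 points lower than Eµ-TCL1 (76.0% ± 9.54; exact p = 0.0571, adjusted 0.210), and Eµ-PRMT5/TCL1 exceeded Eµ-TCL1 by 6.19 points (exact p = 0.257, adjusted 0.707).

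Low cells were of 2 kinds, split after their values had been seen. Those with at least 5 UMIs of Retnlg, Cxcr2, Il1r2, Clec4d, Mmp9 and Csf3r, and at most 1 of Ly6c2, Ms4a6c, Csf1r, F13a1, Elane and Prtn3, are called low cells with neutrophil genes. They numbered 166 of 820 low cells in Eµ-PRMT5 spleens, 61 of 271 in Eµ-TCL1 spleens and 25 of 171 in Eµ-PRMT5/TCL1 spleens, and none of the 595 low cells of Eµ-PRMT5 spleen 4 was of this kind. The limit of 1 UMI does not scale with depth, and the low cells of that spleen had a median of 8606 UMIs. How far the limit fixed this count was not tested. With only such cells counted beside the precursors, the share was 54.8%, 73.5%, 67.9% and 100% in Eµ-PRMT5 spleens 1 to 4, against 92.9%, 98.2%, 94.4% and 93.7% in Eµ-PRMT5/TCL1 spleens. Eµ-PRMT5 spleen 4 then lay above every Eµ-PRMT5/TCL1 spleen, and the difference was 20.7 points (exact permutation p = 0.143, adjusted 0.786). In Eµ-TCL1 spleens 1 to 4 the share was 98.0%, 66.7%, 97.6% and 84.1%. Eµ-PRMT5 against Eµ-TCL1 then gave -12.5 points (exact permutation p = 0.400, adjusted 0.808). Eµ-PRMT5/TCL1 against Eµ-TCL1 gave 8.21 points (exact permutation p = 0.371, adjusted 0.808).

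**Figure D2:**
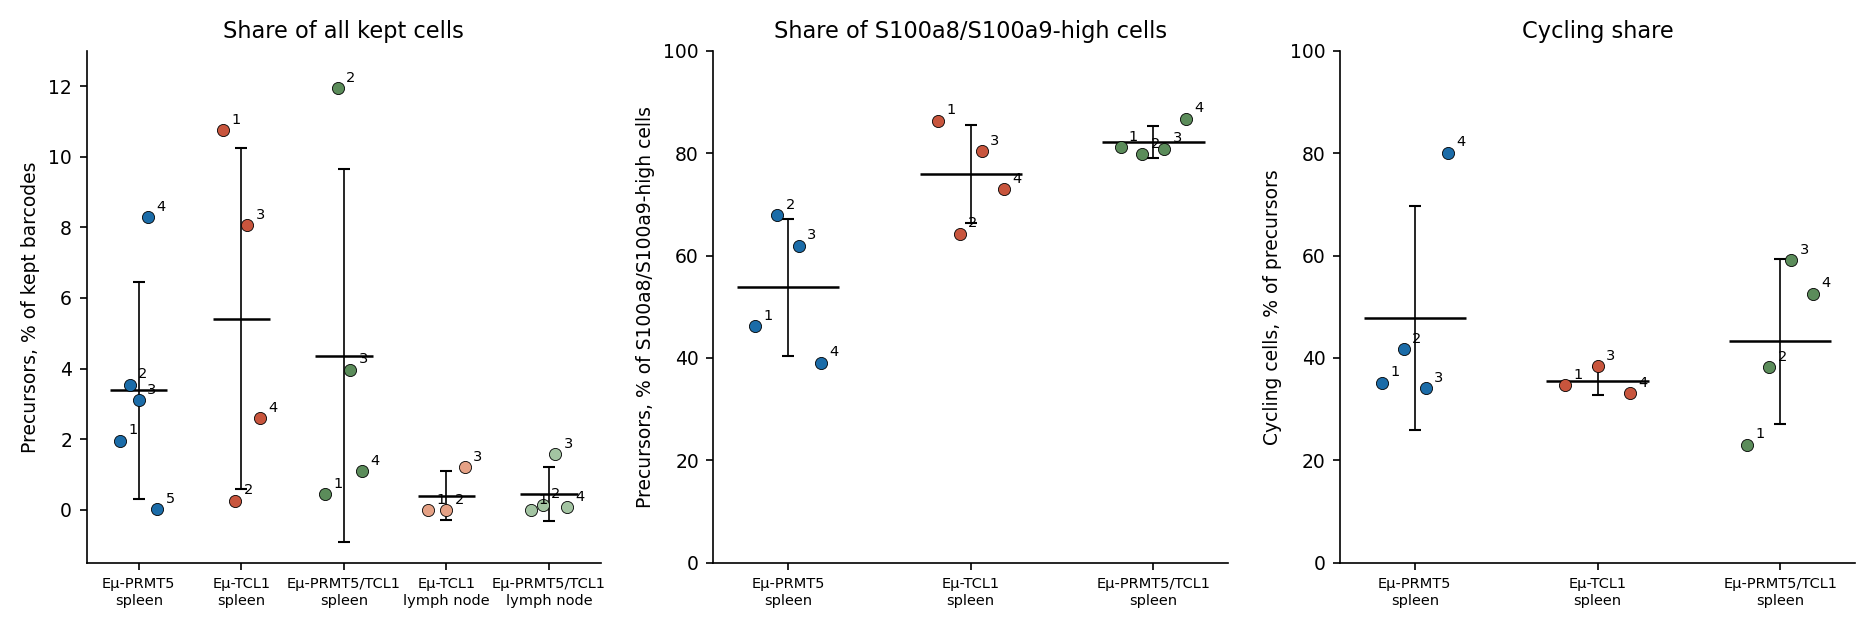
Precursors as a percentage of all kept cells in each library (left), as a percentage of S100a8/S100a9-high cells in each spleen (middle), and cycling cells as a percentage of precursors in each spleen (right). Points are libraries with their replicate number, long bars the mean and whiskers 1 SD; shares of kept cells run from 0.436% to 11.9% within Eµ-PRMT5/TCL1 spleens, and Eµ-PRMT5 spleen 4 has the highest cycling share (80.1%).

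Levels of the granule genes that define the cells departed most in Eµ-PRMT5/TCL1 spleen 4. In Eµ-PRMT5 spleens 1 to 4 Camp stood at 44417, 30838, 37937 and 47385 CPM, and in Eµ-TCL1 spleens 1, 3 and 4 at 57978, 47965 and 41897 CPM. In Eµ-PRMT5/TCL1 spleens 1 to 4 Camp stood at 45108, 46657, 42960 and 16016 CPM. The fourth Eµ-PRMT5/TCL1 spleen was the lowest of all, the other spleens overlapped, and Eµ-TCL1 lymph node 3 was also low at 23227 CPM. Ngp, of the cathelicidin family, lay between 68635 and 81387 CPM in 10 spleens and at 122230 CPM in Eµ-PRMT5/TCL1 spleen 4. Ltf, the iron-binding protein of the secondary granule, was highest in that same spleen (27260 CPM) and lowest in Eµ-PRMT5 spleen 4 (5007 CPM), with a median of 11018 CPM. S100a8 and S100a9 stood at only 23887 and 35685 CPM in Eµ-PRMT5/TCL1 spleen 4, against at least 70693 and 117371 CPM in every other spleen.

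Of Lcn2, Chil3 and Cd177, secondary granule genes that the rule did not use, Lcn2 varied least. Lcn2, which binds bacterial siderophores, ranged from 15217 to 23156 CPM over the 11 spleens with a median of 18658. Chil3, a chitinase-like protein, ranged from 5284 to 13221 CPM with a median of 7711, and Cd177, a neutrophil surface antigen, from 860.2 to 3142 CPM with a median of 1298. Eµ-PRMT5/TCL1 spleen 4 was highest for Chil3 and Cd177, and lowest for Lcn2. Cebpe lay between 190.8 and 681.0 CPM, lowest in Eµ-PRMT5 spleen 2 and highest in Eµ-PRMT5/TCL1 spleen 4. The summed secondary granule list (15 genes without Ltf) spanned only 47339 to 66871 CPM, 1.41-fold.

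Genes at the 2 ends of the maturation series varied more. Elane was at 62.8, 0, 20.3 and 684.8 CPM in Eµ-PRMT5 spleens 1 to 4, at 136.4, 128.8 and 51.4 CPM in Eµ-TCL1 spleens 1, 3 and 4, and at 0, 23.3, 54.6 and 303.6 CPM in Eµ-PRMT5/TCL1 spleens 1 to 4. Prtn3 was at 170.2, 32.3, 45.0 and 927.6 CPM, then 246.7, 211.7 and 130.2 CPM, then 12.6, 84.0, 146.4 and 507.0 CPM in the same order. Both primary granule proteases were highest in Eµ-PRMT5 spleen 4, which also held 70 of the 165 cells removed for Mpo. At the late end, Retnlg, a resistin-like protein of mature neutrophils, was at 6305, 11311, 9523 and 1431 CPM in Eµ-PRMT5 spleens 1 to 4. It was at 6755, 7366 and 8596 CPM in Eµ-TCL1 spleens and at 8947, 4942, 7528 and 2052 CPM in Eµ-PRMT5/TCL1 spleens. Mmp9 was at 138.9 CPM in Eµ-PRMT5 spleen 4 and between 624.96 and 998.9 CPM in the other spleens, and Mmp8, the collagenase, at 132.6 against 330.6 to 882.7 CPM. The spleen with the most Elane and Prtn3 RNA had the least of these late genes.

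**Figure D3:**
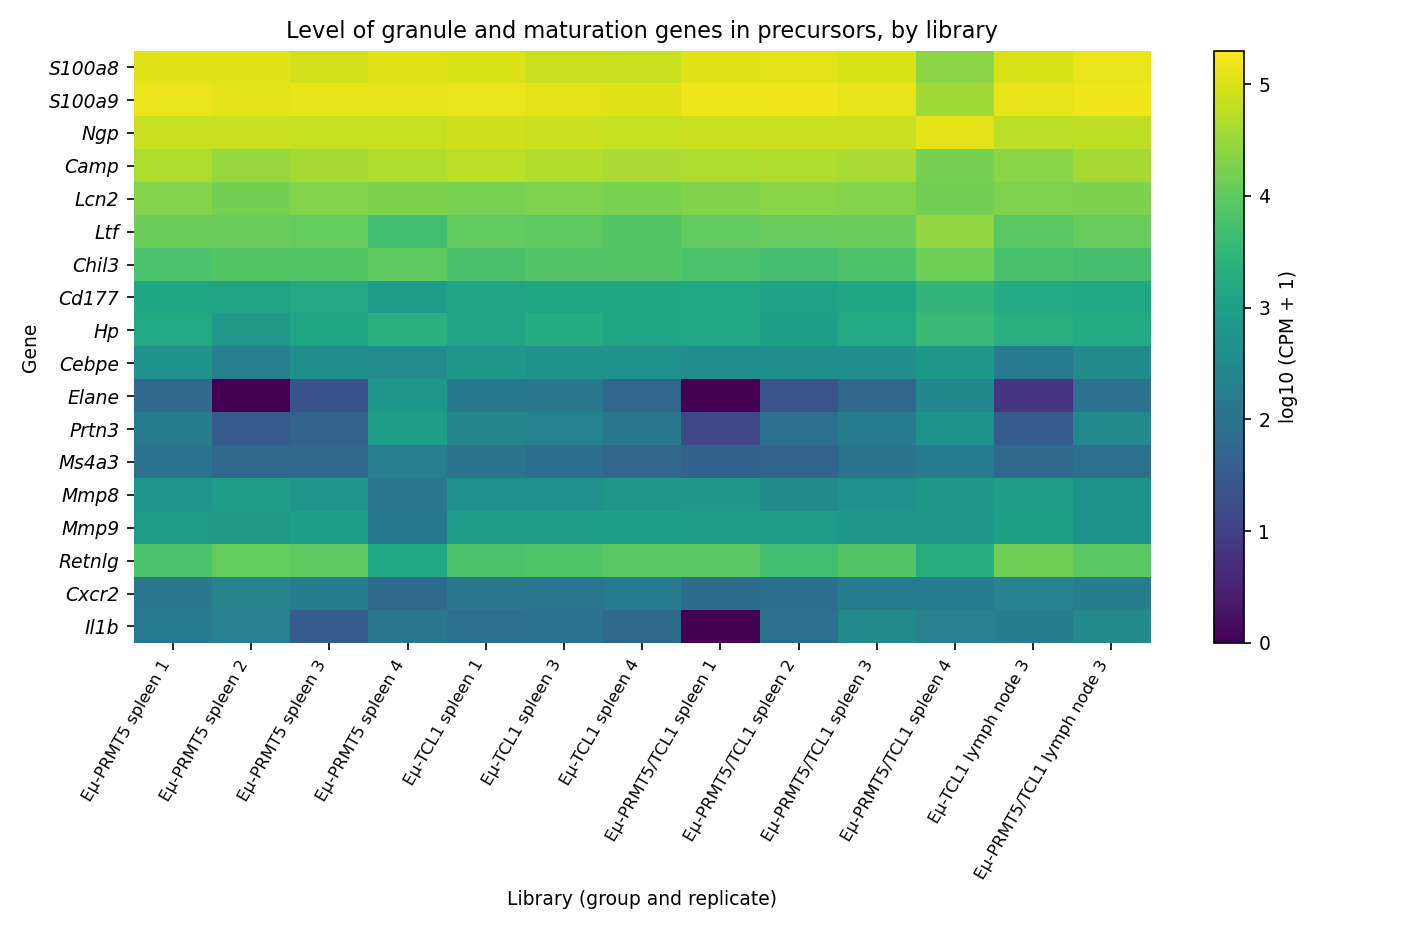
Level of granule and maturation genes in the summed precursors of each library, as log10 of CPM plus 1 (colour); rows are genes and columns are libraries. Eµ-PRMT5 spleen 4 shows high Elane and Prtn3 with low Mmp8, Mmp9 and Retnlg, and Eµ-PRMT5/TCL1 spleen 4 shows low S100a8, S100a9 and Camp with high Ngp and Ltf.

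Set against low cells, precursors carried more of nearly every secondary granule gene. This contrast is a description only, since the rule split the cells on genes of the same RNA. Within each of 9 libraries with at least 20 low cells, 14 of 15 secondary granule genes were higher in precursors in every library, with a median log2 ratio of 2.35, on the scale of CPM plus 1. Of 5346 genes at 20 CPM or more, 6.72% were higher and 33.3% lower in every library, and the median over all was -0.62. The largest ratios were those of Orm1 (an acute phase glycoprotein, 7.82), Olfm4 (olfactomedin 4, found in a subset of neutrophils, 7.57), Itgb2l (an integrin subunit of neutrophils, 5.93), 4930438A08Rik (5.53), Adpgk (an ADP-dependent glucokinase, 5.26), Sept5 (a septin, 5.07), Syne1 (a nuclear envelope protein, 5.03) and Serpinb1a (an inhibitor of neutrophil elastase, 4.88). Next came Cd177 (4.50), Tmem216 (4.29), Cd81 (4.14), Ankrd22 (4.06), Cebpe (4.02), Cd63 (a granule tetraspanin, 3.79) and Ceacam10 (3.77). All 15 were higher in 9 of 9 libraries. Where low cells had no UMI of a gene, the size of its ratio rests on the added 1 CPM. Olfm4 was at 0 in low cells of Eµ-PRMT5 spleen 4, Eµ-TCL1 spleen 3, Eµ-PRMT5/TCL1 spleens 2 and 3 and Eµ-TCL1 lymph node 3. Elsewhere it was at 18.3 to 68.0 CPM in low cells, and its lowest log2 ratio was 0.61, in Eµ-PRMT5 spleen 1.

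Of the lists, 81 of 82 cytosolic ribosomal protein genes (median -1.36) and 5 of 8 monocyte and macrophage genes (-3.97) were lower in precursors in every library, while for nuclear genes of oxidative phosphorylation, 25 of 80 (-0.92), the share was near the 33.3% of all genes. The lowest ratios of single genes were those of Ms4a6c (-6.86), Vcan (versican, -6.79), Fn1 (fibronectin, -6.53), Crip1 (-6.43), S100a10 (-6.42), S100a4 (-6.26), Lgals1 (galectin 1, -6.17) and Ahnak (-5.67). Then came Lmna (lamin A, -5.44), Pld4 (-5.42), Ass1 (-5.35), Pid1 (-5.31), Mcub (-5.30), Ccr2 (the monocyte chemokine receptor, -5.28) and F13a1 (coagulation factor XIII, -5.27). Most of these values rest on low cells of the other kind, whose median depth was 2466.5 to 16064 UMIs in spleens with more than 1 of them. Set against low cells with neutrophil genes, for which F13a1 and Ms4a6c had been kept low, S100a10 had 38 UMIs in precursors and 2 in low cells over 4 libraries, Lgals1 had 17 and 0, Ccr2 9 and 0, and Vcan 1 and 0. Both kinds of cell were nearly empty of these RNAs. Crip1, Ahnak, Lmna, Pld4 and Pid1 did not lose their side in this comparison. Cd63 had a log2 ratio of -0.08 there and was higher in 2 of 4 libraries.

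Low cells with neutrophil genes gave the closer comparison, in Eµ-PRMT5 spleens 1 and 3, Eµ-TCL1 spleen 4 and Eµ-TCL1 lymph node 3, with 458 precursors and 209 low cells. Their low side held 496293 UMIs in all, so that 3 UMIs, taken as the floor, are worth 6.04 CPM. All 15 secondary granule genes were higher in precursors in 4 of 4 libraries (median log2 ratio 2.80, against -0.05 over 4676 genes, of which 24.9% were higher and 26.6% lower in every library). In the order of libraries above, Lcn2 was at 20388, 20811, 16854 and 18838 CPM in precursors and at 2938, 2531, 2409 and 3863 CPM in low cells. Chil3 was at 6351, 8071, 8133 and 6089 CPM against 0, 55.5, 115.6 and 161.6 CPM. Every precursor sum was above every low sum for both genes.

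The subunits of the NADPH oxidase did not move as 1 group. Cybb, the catalytic subunit of the oxidase, which sits in the secondary granule membrane, was at 1106, 838.8, 616.8 and 626.6 CPM in precursors and at 11.2, 0, 0 and 29.4 CPM in low cells, with 3169 and 4 UMIs behind them. Ncf1, a cytosolic subunit, had a median log2 ratio of 0.17 and was higher in 3 of 4 libraries. The list of 7 subunits had 2 higher and 2 lower in every library, with a median of 0.10.

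Mature neutrophil genes showed the opposite order. Of 23 such genes 19 were lower in precursors in all 4 libraries (median -2.18), and 5 of the list had helped to choose the low cells. Il1b, an inflammatory cytokine, was not among those 5. It was at 159.6, 33.3, 67.4 and 176.7 CPM in precursors and at 6281, 3060, 2197 and 1014 CPM in low cells. Ccl6, a chemokine, was at 105.3, 93.0, 158.8 and 127.0 against 2579, 2007, 1754 and 1924 CPM. No precursor sum of either gene reached a low sum. The interferon-stimulated list (median -2.15, 8 of 15 lower in every library) and the inflammatory list (-1.66, 11 of 19) were on the same side. Of 13 genes of gelatinase granules and secretory vesicles, 7 were lower and 4 higher in every library (median -0.77). Mmp9, which had helped to choose the low cells, and Mmp8 were among those higher (0.57 and 0.86).

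Most division genes had few or no UMIs in the low cells of these 4 libraries. The mitosis list had 114 UMIs in low cells and 5958 in precursors, and 113 of the 114 were of Cks2, a subunit of cyclin-dependent kinases. Of 19 mitosis genes at 20 CPM or more, 17 had no UMI in the low cells, while Mki67, Top2a and Birc5 had 332, 384 and 500 UMIs in precursors. At the floor, these are lower bounds on the ratio, and the list's median was 2.98 with such genes at their bound. The S phase list had 35 UMIs in low cells and 3069 in precursors, with 7 of 14 genes at 0 in low cells. Fcnb, a ficolin of early granules, had 378 UMIs in precursors and 0 in low cells. Of 80 cytosolic ribosomal protein genes 55 were higher in precursors in every library (median 0.99), and of 77 nuclear genes of oxidative phosphorylation 42 were (0.93). The medians of both lists were below 0 against all low cells. The low cells of this kind had median depths of 1722 to 2695 UMIs in spleens with at least 8 of them, and precursors of 4809 to 9122; the part of depth in these values was not tested.

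**Figure D4:**
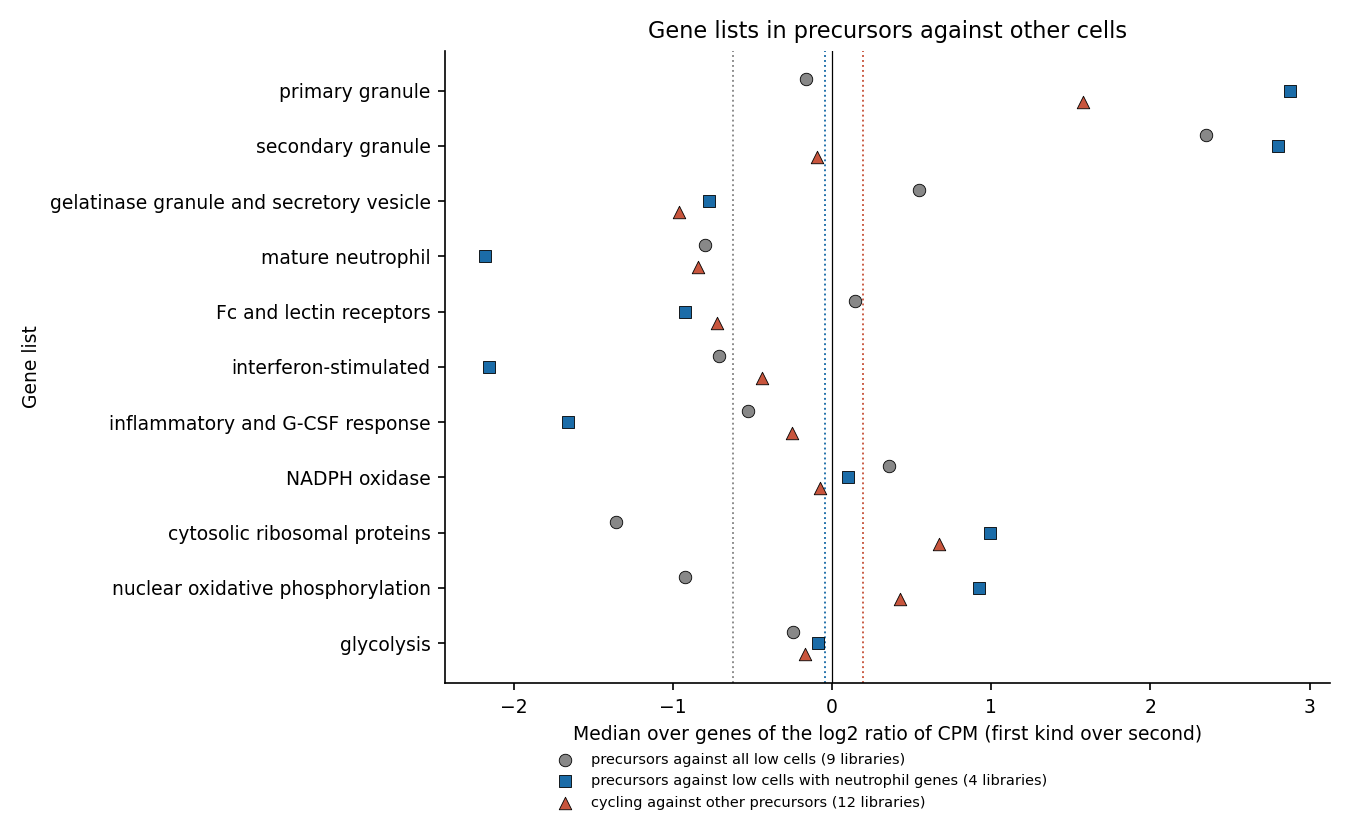
Median over the genes of each list (vertical axis) of the log2 ratio of CPM between 2 kinds of cell of the same library (horizontal axis). Grey circles are precursors against all low cells, blue squares precursors against low cells with neutrophil genes, red triangles cycling against other precursors, and dotted lines the median of all genes for each; secondary granule genes lie at 2.35, 2.80 and -0.10.

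Part of the precursors carried RNA of mitosis genes. A cell with at least 3 UMIs over 20 mitosis genes was counted as cycling, which took in 1236 of 2796 precursors (44.2%) and 24 of 290 low cells with neutrophil genes (8.28%). The call leaned on Cks2: with that gene left out, an alternative chosen after its values were seen, it took in 824 precursors (29.5%) and 0 of the 290 low cells. The count is a range and not a cell type: 264 precursors had 2 such UMIs and 151 had 3. Cycling cells were also deeper, with a median of 9160 UMIs and 2001 genes against 5258.5 and 1291 in the others. The cycling share was 35.2%, 41.7%, 34.2% and 80.1% in Eµ-PRMT5 spleens 1 to 4 and 34.8%, 38.5% and 33.1% in Eµ-TCL1 spleens 1, 3 and 4. It was 23.1%, 38.1%, 59.1% and 52.5% in Eµ-PRMT5/TCL1 spleens 1 to 4. Eµ-PRMT5 spleen 4 was highest, and the genotypes overlapped. Without Cks2 it was 65.4% in Eµ-PRMT5 spleen 4, 47.5% in Eµ-PRMT5/TCL1 spleen 4 and 13.9% to 31.5% in the 9 other spleens. With each cell thinned to 1500 UMIs, the share with any UMI of the list was 79.8% in Eµ-PRMT5 spleen 4 and 23.1% to 61.0% in the other spleens, but 25.5% of the low cells with neutrophil genes also passed. When Cks2 was left out of the thinned call, it took in 806 of 2796 precursors (28.8%) and 2 of those 290 low cells. Mki67, a gene of dividing cells, was seen in 8.33% to 46.1% of precursors a spleen, and in 0% to 16.8% after thinning, highest in Eµ-PRMT5 spleen 4 both times.

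No genotype difference in the cycling share was larger than the spread between mice. The means were 47.8% ± 21.8 (SD, n = 4), 35.4% ± 2.74 (n = 3) and 43.2% ± 16.04 (n = 4). Eµ-PRMT5 against Eµ-TCL1 gave 12.3 points (exact permutation p = 0.514, adjusted 0.808), and 1.56 points without Eµ-PRMT5 spleen 4. Eµ-PRMT5/TCL1 against Eµ-TCL1 gave 7.79 points (exact p = 0.400, adjusted 0.808), and against Eµ-PRMT5 -4.55 points (exact p = 0.771, adjusted 0.829). The last turned to 3.12 points without both libraries that stood apart. With Cks2 left out the differences were 4.96, 0.453 and -4.51 points, each with an adjusted p of 0.971 by the exact permutation test, and their directions rested on single libraries. Without Eµ-PRMT5 spleen 4 the first turned to -6.44 points and the last to 6.90, and without Eµ-PRMT5/TCL1 spleen 4 the second turned to -6.46. Gene by gene, the mitosis list did not follow the share: log2 differences lay below 0 for 18 of 20 genes in Eµ-PRMT5 against Eµ-TCL1 (median -0.22), for 16 of 20 in Eµ-PRMT5/TCL1 against Eµ-TCL1 (-0.25) and for 10 of 20 in Eµ-PRMT5/TCL1 against Eµ-PRMT5 (-0.01). Without both libraries that stood apart these medians were -0.48, -0.52 and 0.05. The S phase list had 17, 17 and 12 of 19 genes above 0 (medians 0.28, 0.35 and 0.09), and without both libraries that stood apart 5, 15 and 16 (-0.11, 0.08 and 0.18). No gene of either list passed edgeR's test. In the nodes 22.4% of 58 precursors (Eµ-TCL1 node 3) and 52.8% of 89 (Eµ-PRMT5/TCL1 node 3) were counted as cycling, and 10.3% and 28.1% without Cks2.

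Within a library, precursors counted as cycling (Cks2 included) carried more RNA of several early granule genes than the others, described here over 12 libraries with at least 10 cells of each kind. Of 9 primary granule genes 3 were higher and 1, Mgst1, lower in every library (median 1.58). Prtn3 had a lowest, median and highest level of 61.3, 258.8 and 1030 CPM in cycling cells, and of 0, 12.502 and 275.9 CPM in the others, and was higher in 12 of 12 libraries (median log2 ratio 4.38). Elane was higher in 11 and level in 1 (4.86), Ms4a3, a granulocyte progenitor gene, in 12 of 12 (2.26), and Fcnb in 12 of 12 (1.79). Of 4527 genes, 20.9% were higher and 6.96% lower in every library, with a median of 0.19. Of 15 secondary granule genes 2 were higher and 1 lower in every library (median -0.10). Chil3 was 0.86 and higher in 12 of 12, Lcn2 was -0.25, Ltf -0.13, Ngp 0.18 and Camp 0.44, and Cebpe was 0.87 and higher in 11 of 12.

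Late genes were lower in cycling precursors. Retnlg had a lowest, median and highest level of 676.3, 3710 and 5699 CPM in cycling cells and of 4131, 12824 and 17975 CPM in the others (-1.88). Mmp9 stood at 102.3, 305.1 and 531.3 CPM against 371.4, 1404 and 1733 CPM (-1.92), and Mmp8 at 87.3, 249.5 and 410.9 CPM against 327.5, 945.2 and 1836 CPM (-1.77). Each of the 3 was lower in 12 of 12 libraries, as were Ly6g, a neutrophil surface antigen (-1.30), and Itgam, the integrin CD11b (-1.04). Of 13 genes of gelatinase granules and secretory vesicles 7 were lower in every library (median -0.96), and of 80 cytosolic ribosomal protein genes 63 were higher (0.67).

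Genotypes were then compared gene by gene in the precursors of 11 spleens, by the quasi-likelihood test of edgeR on sums per library. Of 7464 genes tested, none passed an adjusted p of 0.05 in Eµ-PRMT5 against Eµ-TCL1, Eµ-PRMT5/TCL1 against Eµ-TCL1 or Eµ-PRMT5/TCL1 against Eµ-PRMT5 (0% called in each), and DESeq2 also called 0, 0 and 0. Unadjusted p under 0.05 was reached by 130 genes (1.74%), 148 (1.98%) and 170 (2.28%) in that order, and values did not overlap between groups for 231 (3.09%), 279 (3.74%) and 87 (1.17%). In simulated data this test missed most 2-fold changes, so 0 calls do not show that the genotypes were alike. Mouse Prmt5 itself was at 0 to 5.96 CPM in every spleen.

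The genes with the lowest p are given as not passing, each with edgeR's adjusted p of 1.00. Wsb1, an adaptor of a ubiquitin ligase, was at 118.1, 213.4, 89.9 and 104.5 CPM in Eµ-PRMT5 and at 67.0, 65.3 and 68.5 CPM in Eµ-TCL1 (log2 difference 0.94 ± 0.31 SE). Olfml2b (0.97 ± 0.35) and Arhgef3 (0.79 ± 0.30) also had every Eµ-PRMT5 spleen above every Eµ-TCL1 spleen; both were highest of all in Eµ-PRMT5/TCL1 spleen 4. Hp1bp3, a linker histone-like protein, gave -0.65 ± 0.26 with overlap.

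H1f0, a linker histone of cells that leave the cycle, was at 12.6, 15.6, 23.3 and 50.1 CPM in Eµ-PRMT5/TCL1, at 55.1, 156.1 and 73.1 CPM in Eµ-TCL1, and at 73.4, 12.9, 62.8 and 125.6 CPM in Eµ-PRMT5. Every Eµ-PRMT5/TCL1 spleen was below every Eµ-TCL1 spleen (-1.99 ± 0.52), while 1 Eµ-PRMT5 spleen was also low (-1.67 ± 0.50 against Eµ-PRMT5). With no filter beyond 1 count, H1f0 and H2-Ab1 passed the threshold against Eµ-TCL1, among 6 genes in all. Ifi27l2a, an interferon-induced gene, was at 131.9, 189.8, 309.3 and 173.9 CPM in Eµ-PRMT5/TCL1 and at 48.9, 38.8, 22.8 and 101.0 CPM in Eµ-PRMT5, with no overlap (1.89 ± 0.64).

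MHC class II genes were high in 3 of 4 Eµ-PRMT5/TCL1 spleens and in 1 Eµ-PRMT5 spleen. Cd74, the MHC class II chaperone, was at 18.8, 315.8, 331.6 and 840.2 CPM in Eµ-PRMT5/TCL1 spleens 1 to 4, at 70.1, 70.3 and 20.6 CPM in Eµ-TCL1 spleens, and at 57.4, 16.2, 54.2 and 303.1 CPM in Eµ-PRMT5 spleens (2.60 ± 0.89 for Eµ-PRMT5/TCL1 against Eµ-TCL1). Spleen 1 of Eµ-PRMT5/TCL1 was as low as Eµ-TCL1, and the groups overlapped. H2-Aa (2.72 ± 0.87) and H2-Ab1 (2.79 ± 0.80), the MHC class II chains, and Ctss (1.97 ± 0.59), a protease that processes Cd74, were likewise highest in Eµ-PRMT5/TCL1 spleen 4 and low in Eµ-PRMT5/TCL1 spleen 1. Without both libraries that stood apart the differences were 2.25 for Cd74, 2.63 for H2-Aa, 2.77 for H2-Ab1 and 1.64 for Ctss. B cells and monocytes also express these genes. The B cell list, at 1450 CPM in Eµ-PRMT5/TCL1 spleen 4 and at 270.2 to 664.7 CPM in the other spleens, holds Cd74 and H2-Aa itself and is no separate measure. Ms4a1, which is not among them, was at no more than 6.28 CPM. Csf1r, a monocyte receptor, was at 94.3 CPM in that spleen and at 0 to 23.3 CPM in the others. The monocyte and macrophage list that holds Csf1r went the other way. It was lowest in that spleen, at 834.3 CPM, against 993.8 to 1662 CPM in the others. The part of RNA from other cells in these values was not tested.

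The stefins, small inhibitors of cysteine proteases, differed widely from mouse to mouse. These genes are near-identical copies on chromosome 16, so their counts are uncertain gene by gene. Summed over 8 genes they stood at 713.8, 126.1, 1857 and 8691 CPM in Eµ-PRMT5 spleens 1 to 4, at 497.5, 837.1 and 2104 CPM in Eµ-TCL1 spleens, and at 860.8, 407.7, 609.6 and 26.5 CPM in Eµ-PRMT5/TCL1 spleens. Eµ-PRMT5 spleen 4 was highest, Eµ-PRMT5/TCL1 spleen 4 lowest, and the groups overlapped. Stfa3 gave 2.89 ± 1.05 for Eµ-PRMT5 against Eµ-TCL1, but -0.31 without Eµ-PRMT5 spleen 4. For Eµ-PRMT5/TCL1 against Eµ-PRMT5, Stfa3 gave -4.80 ± 1.198, BC100530 -4.80 ± 1.27 and Stfa2 -4.41 ± 1.23; all 3 passed the threshold with no filter beyond 1 count. Without Eµ-PRMT5 spleen 4 they gave -1.59, -2.71 and -2.03, and without both libraries that stood apart -1.57, -2.37 and -1.80.

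No list held a gene that passed the test between genotypes. The secondary granule list had medians of 0.00, 0.15 and 0.11 log2 in the 3 comparisons, beside 0.02, -0.00 and -0.04 over all genes. Of its 15 genes 8, 13 and 10 lay above 0. The mature neutrophil list had 0.13, 0.15 and -0.03, and the primary granule list 0.19, -0.07 and -0.15. Without both libraries that stood apart the primary granule medians were -0.46, -0.17 and 0.25. Cytosolic ribosomal protein genes lay below 0 for 75 of 82 in Eµ-PRMT5/TCL1 against Eµ-TCL1 (median -0.37) and for 82 of 82 against Eµ-PRMT5 (-0.41), and 23 of 82 did not overlap between groups in the first comparison, where 3.74% of all genes did not, and 2 of 82 in the second, against 1.17%. The list summed to 38504, 45080, 43255 and 20759 CPM in Eµ-PRMT5/TCL1 spleens 1 to 4, to 46112, 53245 and 53938 CPM in Eµ-TCL1 spleens, and to 43539, 36086, 47070 and 72937 CPM in Eµ-PRMT5 spleens 1 to 4. In these CPM every Eµ-PRMT5/TCL1 spleen was below every Eµ-TCL1 spleen, while Eµ-PRMT5 spleens overlapped both. The medians come from the fit, which used TMM scaling. The TMM factor was 0.862 in Eµ-PRMT5/TCL1 spleen 2 and 0.895 to 1.06 in Eµ-TCL1 spleens. With that scaling, the sum of Eµ-PRMT5/TCL1 spleen 2 was no longer below those of Eµ-TCL1 spleens. The fitted differences rested on the libraries that stood apart: without both, 48 of 82 genes lay below 0 against Eµ-TCL1 (median -0.06), and 12 of 82 against Eµ-PRMT5 (0.17). Genes of the inflammatory and G-CSF response list had medians of 0.44, 0.48 and 0.11, with 15, 18 and 12 of 20 above 0, and 0.08, 0.51 and 0.55 without both libraries. The monocyte and macrophage list (6 genes tested) had 0.68, 0.97 and 0.60, and 0.08, 0.63 and 1.01 without both (5 genes tested). The stefins (6 genes tested) had 1.70, -1.59 and -3.69, and -0.35, -1.39 and -1.33 without both.

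The interferon-stimulated list varied within each genotype. It summed to 2128, 2335, 1910 and 6696 CPM in Eµ-PRMT5 spleens 1 to 4, to 6319, 3051 and 1552 CPM in Eµ-TCL1 spleens 1, 3 and 4, and to 2677, 5118, 5465 and 4599 CPM in Eµ-PRMT5/TCL1 spleens 1 to 4. Each genotype held both low and high spleens. None of the 24 genes tested passed in any comparison (medians -0.23, 0.17 and 0.39). Without both libraries that stood apart the medians were -2.01, 0.21 and 2.09, with 0, 19 and 24 of 24 genes above 0. Eµ-PRMT5 spleen 4, left out there, held the highest sum of these spleens.

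**Figure D5:**
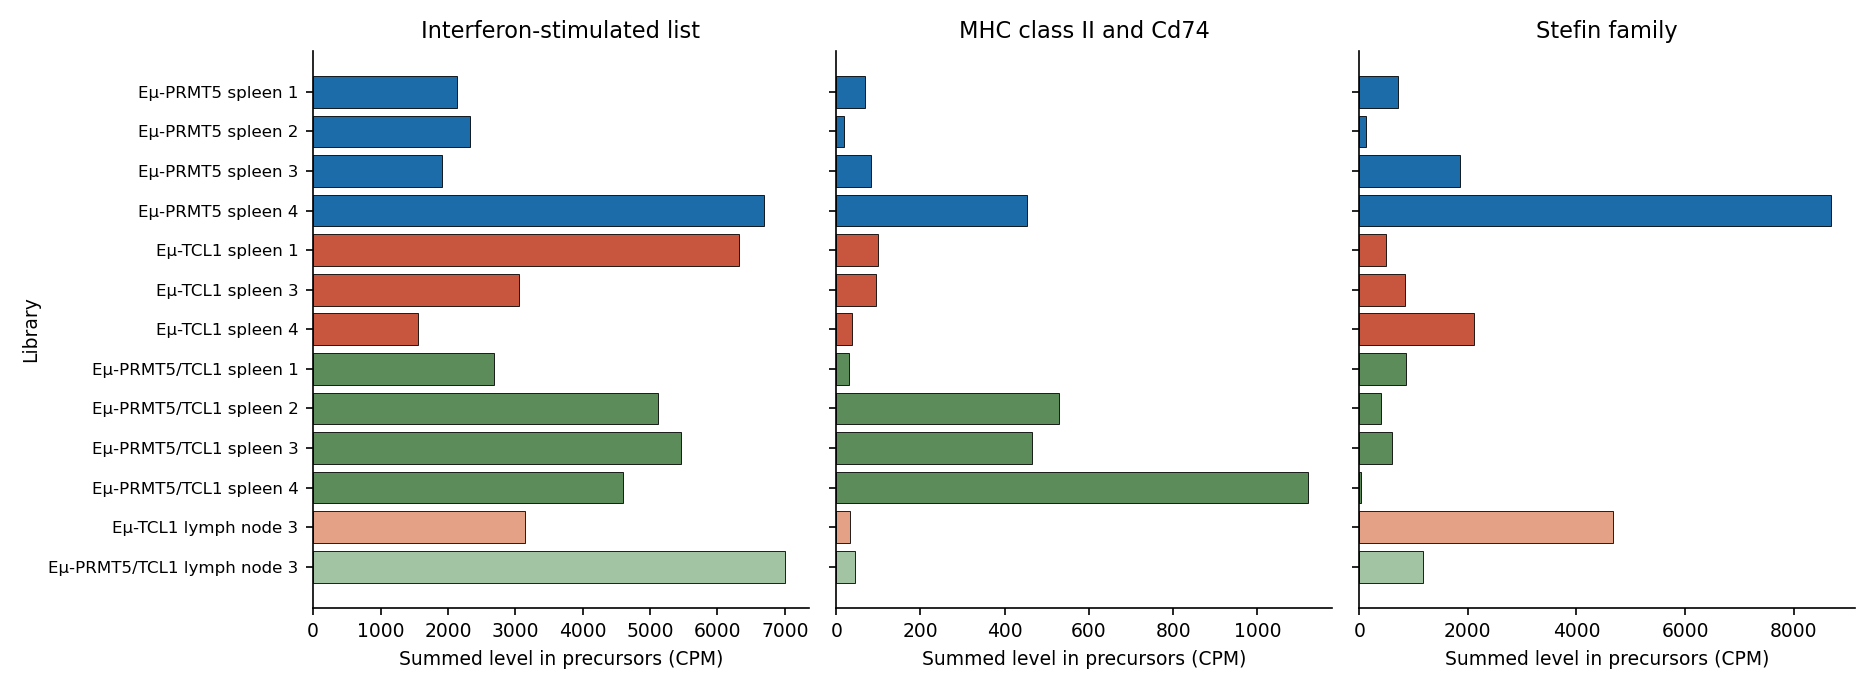
Summed level in precursors (horizontal axis, CPM) of the interferon-stimulated list, of MHC class II genes with Cd74, and of the stefin family in each library (vertical axis); colours are groups. Eµ-PRMT5 spleen 4 has the highest stefin sum (8691 CPM), and Eµ-PRMT5/TCL1 spleen 4 the highest MHC class II sum (1120 CPM) and the lowest stefin sum (26.5 CPM).

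Precursors of nodes could be set beside those of the same mouse's spleen in 2 mice, Eµ-TCL1 node 3 with spleen 4 and Eµ-PRMT5/TCL1 node 3 with spleen 3. With 1 node of each genotype the values are a description, and no test was run. Of 1327 genes at 100 CPM or more, 19 (1.43%) were at least 2-fold higher in the node in both mice and 2 (0.151%) at least 2-fold lower. Among those also above all 11 spleens, chosen after their values were seen, were Wfdc17, Ifitm1, Timp2, Jund, Hist1h2ap and Ctsl. Wfdc17, a small secreted protein of myeloid cells, was at 1700 CPM against 51.4 CPM in the first mouse and at 648.8 against 104.2 CPM in the second. Ifitm1, an interferon-induced membrane protein, was at 1720 against 76.5 CPM and at 738.1 against 125.6 CPM. In low cells with neutrophil genes, Wfdc17 lay between 2679 and 8798 CPM and Ifitm1 between 3064 and 8637 CPM.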

How the data were processed

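Single cells of spleens and lymph nodes were captured with the 10x 3′ version 2 chemistry, and the authors deposited unfiltered tables of UMI counts per gene and barcode for each library. The deposited counts carry Cell Ranger 3.1.0 in their headers, while the submitters' processing notes name Cell Ranger 2.0.1, Seurat 2.2.1 and the build GRCm38. The matrices hold 31053 genes and 737280 barcodes, with no removal of free RNA stated in the sources used here. No doublet caller was run: cells with Cd3 or 2 or more Cd79 UMIs were left out, and 0 to 18 precursors a library had over 3 times the library's median UMIs.

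Groups came from the sample descriptions, and mouse numbers from the sample titles. Raw counts of precursors were summed per library with at least 20 of them. Genotypes were compared with the quasi-likelihood test of edgeR 4.0.16 (TMM scaling, filterByExpr, Benjamini-Hochberg adjustment, threshold 0.05) in R 4.3.3, with DESeq2 1.42.0 as an alternative. The code was tested on simulated data with true changes. Of 2-fold changes 11%, 14% and 21% were recovered in the 3 comparisons, and of 4-fold changes 88%, 93% and 93%. False calls made up 6.60%, 6.14% and 4.20%. Shares were compared by exact two-sided permutation of libraries (Python 3.11.15, NumPy 2.4.6, SciPy 1.17.1, pandas 2.3.3), adjusted over 11 tests. Differences between cells of 1 library are medians over libraries of log2(CPM + 1) ratios and carry no test. Plots were drawn with Matplotlib 3.10.9.

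The members, the gene lists and the comparisons were chosen with earlier results of these data known. The genes named were the rule genes, up to 4 of each list, the 5 genes of lowest p at a mean of at least 50 CPM in each genotype comparison with none called (immunoglobulin, haemoglobin and mitochondrial genes apart), and the 15 genes a direction with the largest ratio to low cells among those at 100 CPM or more with 1 direction in every library. Stefin genes, named by that rule, are near-identical copies, and reads could have been split among them. The split of the low cells, the MHC class II sum, the mitosis list without Cks2 and the genes of nodes were chosen after their values were seen. So was the pair of libraries left out together. Values of some genes are not reported here.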

Additional observations from a re-analysis of the deposited data

Results flagged for a closer look

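In groups of 4 or 5 libraries, 9 values of 35 groups checked stood farther from the others than Dixon's 95% criterion allows. For groups not chosen by their values, chance gives this in about 1 of 20. Eµ-PRMT5/TCL1 spleen 4 gave 3 of them: Chil3 at 13221 CPM (next spleen of the genotype 6488), Cd177 at 3142 (1420) and Cebpe at 681.0 CPM (416.5) were high. These levels are CPM without TMM scaling, whose factor was 1.42 in that spleen and 0.862 to 0.935 in the other Eµ-PRMT5/TCL1 spleens. Eµ-PRMT5 spleen 4 gave 5: the cycling share at 80.1% (41.7%), Elane at 684.8 (62.8), Prtn3 at 927.6 (170.2), Stfa3 at 446.2 (24.6) and Cd74 at 303.1 CPM (57.4). The share of precursors was high in Eµ-PRMT5/TCL1 lymph node 3, at 1.57% of kept cells against 0.149% in the next node. The genes of the rule were not checked. The genes checked were picked by hand and included Stfa3, BC100530, H1f0 and Cd74, named above for their low p in these same data. The same libraries also recur among the groups, so the chance rate is no measure of these flags.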

How the results depend on the processing

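No genotype difference in shares passed an adjusted p of 0.05 under the settings run, and of the main values under alternatives 240 kept direction and call, 16 reversed and 5 moved. Both libraries that stood apart left out turned the Eµ-PRMT5/TCL1 against Eµ-TCL1 share of kept cells to 0.0320 points and the Eµ-PRMT5/TCL1 against Eµ-PRMT5 cycling share to 3.12 points; the cause was not tested. With Cks2 left out of the mitosis list as well, added after seeing the data, cycling differences were -6.44, -6.46 and -0.016 points without both libraries, and 6.90 for the last without Eµ-PRMT5 spleen 4 alone. With 1 library left out at a time, differences of the share of kept cells ran from -3.75 to -0.253 points (Eµ-PRMT5 against Eµ-TCL1), -3.58 to 0.720 (Eµ-PRMT5/TCL1 against Eµ-TCL1), -1.55 to 2.28 (Eµ-PRMT5/TCL1 against Eµ-PRMT5), -0.329 to 0.448 (nodes) and -4.63 to -2.69 (node against spleen). Those of the share of S100a8/S100a9-high cells ran from -26.9 to -17.3, 2.28 to 9.63 and 23.5 to 33.1 in the same order of genotypes, and those of the cycling share from 1.56 to 16.9, 2.48 to 14.5 and -9.85 to 6.23. Genes called stayed at 0 to 0 in each comparison with 1 library left out, and at 0 with the replicate number as a block; same-numbered spleens share only a number (correlations of deviations -0.27 to 0.11). With no filter beyond 1 count, edgeR called 4, 6 and 8 genes; the cause was not tested. Stfa3 for Eµ-PRMT5 against Eµ-TCL1 ran from -0.31 (without Eµ-PRMT5 spleen 4) to 3.25 with 1 library left out and was -0.30 without both that stood apart. Against low cells with neutrophil genes only, an alternative added after seeing the data, genes at least 4-fold higher or lower in every library numbered 105 and 195, in place of 67 and 122, over 4 libraries in place of 9. Log2(CPM + 1) ratios, most on few UMIs and none of them a bound, no longer kept their side for Cd63 (-0.080), Ms4a6c (0.86), Vcan (0.00), Fn1 (0.00), S100a10 (1.24), S100a4 (1.07), Lgals1 (1.30), Ass1 (0.82), Mcub (0.35), Ccr2 (1.204) and F13a1 (1.91). Genotype fits in nodes were not run, since only 1 node a genotype had 20 precursors.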

Other observations

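H2-Q6 and H2-Q7, nonclassical MHC class I genes chosen after their values were seen, varied from mouse to mouse in precursors. Their sum was 11.7, 35.6, 11.1 and 513.2 CPM in Eµ-PRMT5 spleens 1 to 4, 468.4, 73.2 and 4.57 CPM in Eµ-TCL1 spleens 1, 3 and 4, and 94.2, 465.0, 406.6 and 486.4 CPM in Eµ-PRMT5/TCL1 spleens 1 to 4. Each genotype held a spleen under 100 CPM and a spleen over 400 CPM. H2-K1, H2-Q4 and H2-T22, other MHC class I genes, were highest in the same spleens. H2-K1 stood at 1306 to 1963 CPM in Eµ-PRMT5 spleen 4, Eµ-TCL1 spleen 1 and Eµ-PRMT5/TCL1 spleens 2 to 4. In the other spleens it stood at 225.0 to 842.0 CPM. Over all kept cells, the sum of H2-Q6 and H2-Q7 was 290.7 to 1115 CPM in spleens. In lymph nodes the sum was 5.52 CPM (Eµ-TCL1 node 3) and 328.1 CPM (Eµ-PRMT5/TCL1 node 3). Near-identical copies of these genes may share reads, so the sum is uncertain.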
